A study of Mus musculus with 9 samples.

Results

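The chemokine and chemokine receptor genes of the mouse liver were followed across 9 RNA sequencing libraries. They were taken by gene symbol (Ccl, Cxcl, Ccr, Cxcr and Ackr genes with a number, Ccrl2, Cx3cl1, Cx3cr1, Xcl1 and Xcr1). Of 55 such entries among the 25781 genes of the table, 51 had a mean of at least 1 scaled count over the 9 libraries and are described here. A scaled count is a number of reads divided by a factor of its library that makes the typical gene equal between libraries. The 51 members are 28 ligands, 16 signalling receptors, 5 atypical receptors and 2 pseudogenes of Ccl19. The 4 entries left out are Ccl12, Ccr6, Cxcl17 and Cxcl3, with 1 to 6 reads in all.

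All mice were of the Swiss strain and aged 10 to 12 weeks, and all libraries came from liver. The control group received no β-CYP, the β-CYP group received β-CYP at 40 mg/kg, and the selenite group received β-CYP at 40 mg/kg together with Na2SeO3 (sodium selenite) at 50 µg/kg, with 3 libraries in each group. The series calls these the control, liver injury and repair groups and concerns selenium against liver injury. What β-CYP stands for is not spelled out, and no group is labelled as given selenite alone. Nothing states that each library is from its own mouse, so the p-values measure the spread between libraries, which may be technical. Libraries held 28630269 to 36029560 reads.

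Chemokines are small secreted proteins that direct the migration of leukocytes through G protein-coupled receptors on their surface. Inflammatory chemokines are made on demand by hepatocytes, Kupffer cells (the resident macrophages of the liver) and endothelium, and draw neutrophils, monocytes and lymphocytes into the sinusoids, whereas homeostatic chemokines such as CXCL12 hold cells in place at rest. Atypical receptors bind chemokines without classical G protein signalling and remove, transport or present them.

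The message of the neutrophil attractant Cxcl1 rose 7.44-fold in β-CYP, and it was lower again with selenite without reaching the control level. Cxcl9, a T cell attractant, followed the same order, while Cxcl10, which binds the same receptor, did not pass between β-CYP and control and was highest with selenite. Ccl6, Cxcl14 and the monocyte receptor Ccr2 rose in β-CYP and rose further with selenite. The further rise of Cxcl14 and Ccr2, unlike that of Ccl6, was lost in several fits that left out 1 library. Cxcl12 fell in β-CYP and did not differ from control beyond its spread with selenite. Cxcl13, Cx3cr1 and Ccl7 were higher with selenite than in either other group, and their differences between β-CYP and control did not pass. Ccl7 met the minimum mean of 1 scaled count only through the selenite libraries.

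The comparisons were made in limma, with p-values adjusted over all 20145 genes tested. Between β-CYP and control, 8 members were higher and 1 lower of 51 (17.6%), against 16.3% of all genes, 7.72% higher and 8.58% lower. With only these groups fitted, 5 members were higher. Between selenite and β-CYP, 13 were higher and 3 lower (31.4%), against 23.9% of all genes, 11.6% higher and 12.3% lower. The 13 became 7 without β-CYP replicate 1, 6 without β-CYP replicate 2, 7 without selenite replicate 1 or 2, 9 without replicate 3 of either group and 8 with no intensity trend. Between selenite and control, 17 were higher and 1 lower (35.3%), against 28.9% of all genes, 14.4% higher and 14.5% lower. The share of members called was thus near that of all genes in the first comparison, and in each comparison most of the members called were higher, whereas the calls over all genes were about evenly divided. The median log2 change of the members was 0.25, 0.59 and 1.33 in the same order, beside -0.0013, 0.017 and 0.027 over all genes tested. The scarce members weigh on these medians. For members with a mean below 10 scaled counts they were 0.59, 0.99 and 1.68. Among these, Ccl7, Xcl1 and Cxcr1 met the minimum mean of 1 only through the selenite libraries, which favours a rise with selenite. The means of Xcl1 in control, β-CYP and selenite were 0, 0.62 and 3.44, and those of Cxcr1 were 1.01, 0 and 2.77. The medians at 10 to 100 were 0.21, 0.42 and 0.92, and at 100 or more 0.13, 0.55 and 0.62. The 5 atypical receptors had 0.42, -0.44 and -0.75. Members whose 3 libraries lay wholly above or wholly below those of the other group numbered 12 and 2 in the first comparison, against 15.4% and 16.2% of all genes (31.6% together). They numbered 17 and 4 in the second, against 19.3% and 18.5% (37.8%), and 23 and 1 in the third, against 21.4% and 20.4% (41.8%). The comparisons share groups, so their values are given side by side and are not independent of each other.

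Of the 12 members with a mean of at least 100 scaled counts, 6, 9 and 8 were called in the 3 comparisons, against 25.7%, 37.1% and 43.7% of genes at that level. Of the 21 members at 10 to 100, 3, 5 and 7 were called, against 7.94%, 14.8% and 18.3%. Of the remaining 18 members, below 10, limma called 0, 2 and 3, against 4.6%, 5.12% and 8.2%. In the comparison with 0 calls, 3 of the 18 had an unadjusted p under 0.05, and voom on the recovered reads called 0 as well. Scaling the libraries to equal totals in place of the authors' factors raised the median of all genes by 0.12 (log2) between selenite and β-CYP and by 0.13 between selenite and control, and moved the calls over all genes from 2337 higher and 2468 lower to 3238 and 1335 in the former. The members were then 14 higher and 2 lower in the former and 21 higher, with no member lower, in the latter.

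**Figure D1:**
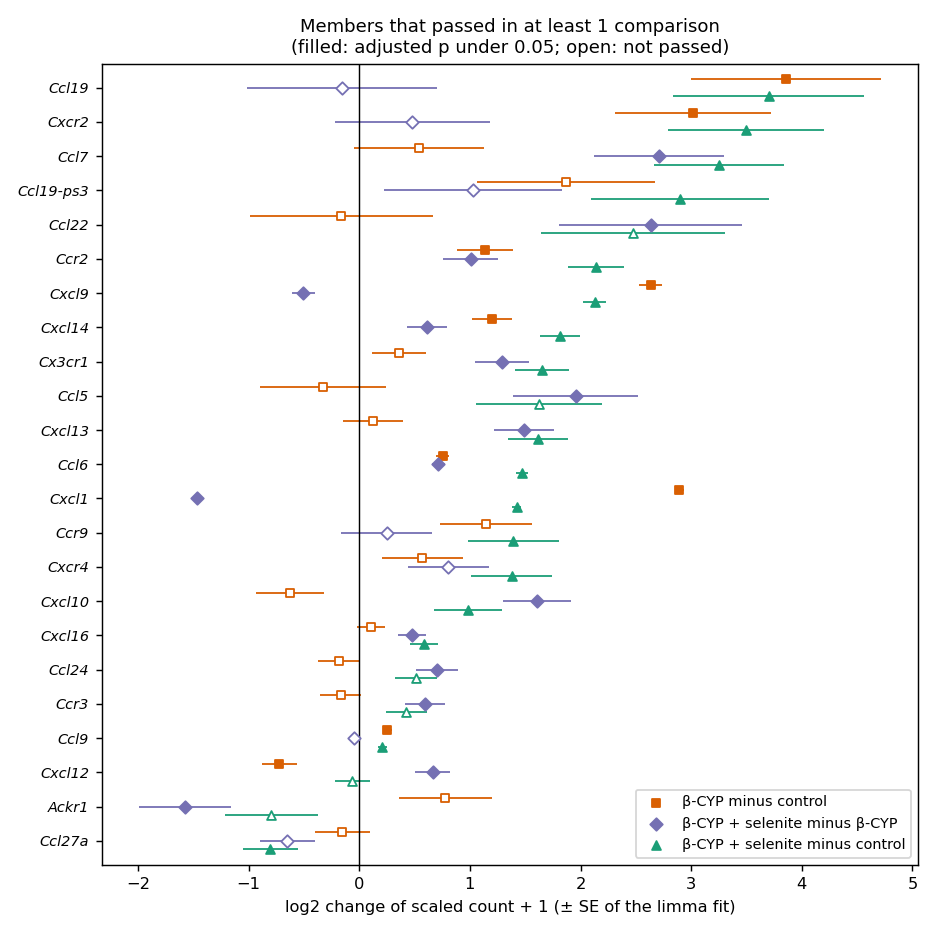
Log2 change of scaled count + 1 with the standard error of the limma fit for 23 of the 24 members that passed in at least 1 comparison, with a filled symbol where the adjusted p was under 0.05 and an open one where it was not. Cxcl1 (2.89 and -1.47) and Cxcl9 (2.63 and -0.51) are the members with a filled square to the right of 0 and a filled diamond to the left of it, and Ccl6, Ccr2 and Cxcl14 have both to the right.

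Whole liver contains many cell types, so fewer cells of a type and less RNA per cell cannot be told apart. The 10 hepatocyte markers were present in every library. Their sum, of which Alb was the largest part, was highest in β-CYP, at 3873270 to 3996106 scaled counts. The control range was 3258939 to 3400026 and the selenite range 3254596 to 3297801. Of these genes, 9 were lower and 1 higher when selenite was compared with β-CYP. Against control, 8 were lower and 2 higher with selenite, and 3 were lower and 4 higher in β-CYP. The summed level of 11 neutrophil markers was 166 to 191 scaled counts in control, within 546 to 629 in β-CYP and 795 to 899 with selenite. Kupffer cell and macrophage markers (12 genes) summed to 15933 to 16576, 16454 to 16855 and 20261 to 20415, and monocyte markers (6 genes) to 2076 to 2223, 2127 to 2426 and 2642 to 2909. T cell markers (14 genes) summed to 129 to 169, 130.3 to 181 and 227 to 341, and natural killer cell markers (10 genes) to 21.2 to 23.2, 5.11 to 29.6 and 80.5 to 95.9. B cell and lymphoid follicle markers (10 genes) summed to 80.5 to 99.4, 29.6 to 73.0 and 73.8 to 116, so their selenite range overlapped that of control. Dendritic cell markers (9 genes) summed to 287 to 346, 348 to 407 and 385 to 423. No gene of these lists was at 0 in all 9 libraries.

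The selenite libraries also carried transcripts of the exocrine pancreas. The 12 acinar markers summed to 38174 to 39645 scaled counts with selenite, against a control range of 983 to 1157 and a β-CYP range of 1159 to 1236, and all 12 rose between selenite and β-CYP. Outside the selenite libraries nearly all of that sum was the elastase gene Cela1 (978 to 1218 scaled counts), and 6 of the 12 genes were at 0 in those 6 libraries. The 5 islet genes in the table summed to 2.87 to 11.1 with selenite and were at 0 in the other 6 libraries. The part of this tissue, and of the leukocyte markers, in the selenite values of the members below was not tested. Control replicate 2 stood apart in the mean over genes. Pairs of libraries within a group differed by a mean chi-square per degree of freedom of 9.55 to 14.4. Where control replicate 2 was one of the pair, it was 209 and 237. In the median gene these pairs did not stand apart, at 1.523 and 1.545 against 1.49 to 1.71 in the others. Results that turn on control replicate 2 are named.

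**Figure D2:**
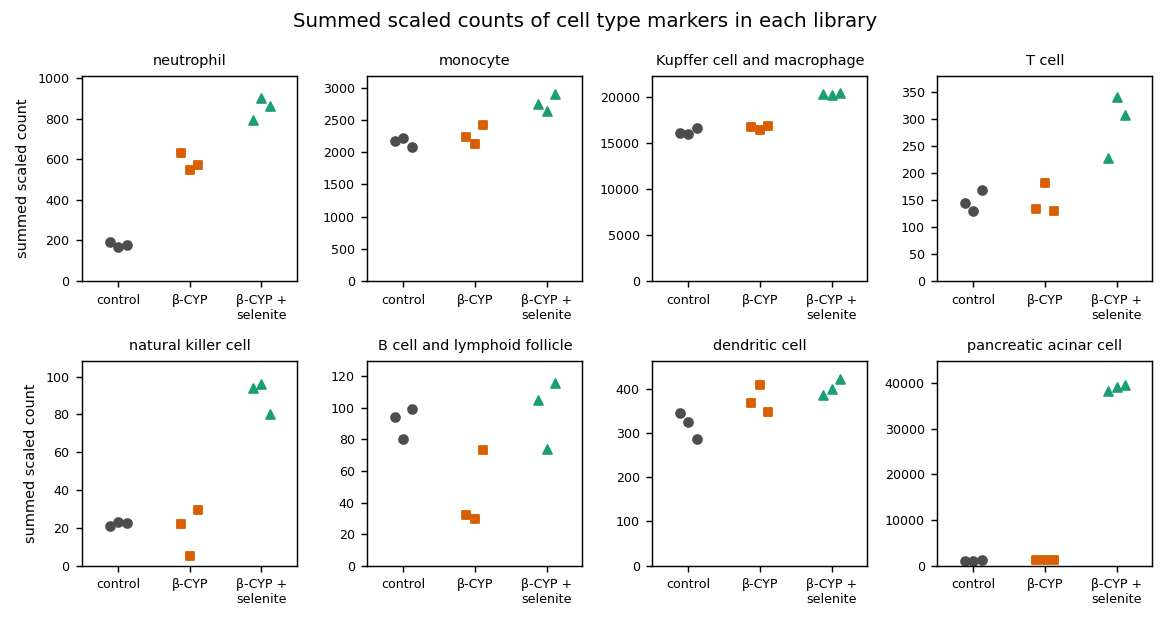
Summed scaled counts of marker genes for 8 cell types, on linear axes from 0, with 1 symbol for each of the 3 libraries of a group. Neutrophil markers stand at 166 to 191 in control and 795 to 899 with selenite, natural killer and T cell markers stand highest with selenite, and pancreatic acinar markers stand at 38174 to 39645 with selenite alone.

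CXCL1 and CXCL2 attract neutrophils through the receptor CXCR2. Cxcl1 stood at 577, 534 and 563 scaled counts in control, at 4096, 4277 and 4080 in β-CYP and at 1502, 1493 and 1497 with selenite. The 3 groups did not overlap. Cxcl1 was thus 7.44-fold higher in β-CYP than in control (log2 change 2.89 ± 0.043 (SE), adjusted p = 1.2e-10), 2.77-fold lower with selenite than in β-CYP (-1.47 ± 0.043, adjusted p = 9.1e-09) and still 2.68-fold higher with selenite than in control (1.42 ± 0.043, adjusted p = 8.5e-09). All 3 calls held in each of the 18 alternatives run for a comparison (17 for members with a mean below 10). The SD of its 3 selenite libraries, 4.16, was smaller than the 37.4 that read counting alone gives at that level, so the agreement of these libraries is closer than their precision.

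Cxcl2, its direct neighbour among the protein-coding genes of the RefSeq annotation, stayed near the floor of detection. Its level was 0, 4.03 and 3.43 scaled counts in control, 5.20, 8.17 and 1.85 in β-CYP and 9.21, 5.53 and 8.62 with selenite. No comparison passed (log2 change in β-CYP 0.95 ± 0.71, 95% interval -0.63 to 2.54). Cxcl3, a further ligand of CXCR2, had 1 read in all 9 libraries together.

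The windows of 250 bases before the start sites of the Cxcl1 and Cxcl2 genes are shown because these neighbours hold the same motif and only Cxcl1 of them passed in any comparison; the difference between their changes was not tested. They come from RefSeq on build GRCm38.p6, which is not the build the submitters name, and are used for their letters only. Capitals mark matches on either strand to GGG followed after any 2 bases by TTTCC, a form of the site bound by the inflammatory transcription factor NF-κB.
Cxcl1, chr5:90890995-90891244, plus strand: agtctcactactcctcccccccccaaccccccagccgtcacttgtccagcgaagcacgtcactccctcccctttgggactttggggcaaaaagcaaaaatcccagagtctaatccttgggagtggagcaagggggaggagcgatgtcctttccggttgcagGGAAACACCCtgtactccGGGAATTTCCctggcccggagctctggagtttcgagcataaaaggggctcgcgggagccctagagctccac
Cxcl2, chr5:90903649-90903898, plus strand: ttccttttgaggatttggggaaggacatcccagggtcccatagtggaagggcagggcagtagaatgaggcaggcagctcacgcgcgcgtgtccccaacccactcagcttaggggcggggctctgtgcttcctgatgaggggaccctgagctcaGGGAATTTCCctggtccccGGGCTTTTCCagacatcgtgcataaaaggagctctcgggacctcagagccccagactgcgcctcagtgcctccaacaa

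Both windows hold 2 matches, which begin at base -89 and -71 before the start for Cxcl1 and at base -97 and -78 for Cxcl2. The motif is present in 1.41% of 32851 promoter windows of this length. Windows were found for 37 of the 51 members, 42 windows in all, and 4 members held the motif, the others being Ccl9 and Ccr3. A match is a description of the letters and not a measured binding site.

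CXCR2 is the receptor through which neutrophils sense these ligands. Cxcr2 stood at 0, 5.03 and 5.71 scaled counts in control, at 26.0, 29.6 and 24.96 in β-CYP and at 48.8, 54.4 and 20.1 with selenite. Both treated groups lay above control, and selenite replicate 3 lay below all 3 β-CYP libraries. The rise was 3.02 ± 0.70 (log2) in β-CYP (adjusted p = 0.016) and 3.50 ± 0.70 with selenite (adjusted p = 0.0043), and the difference between the treated groups did not pass (0.48 ± 0.70, 95% interval -1.10 to 2.06). The β-CYP call was lost without β-CYP replicate 2 (adjusted p = 0.054) and when only control and β-CYP were fitted (0.065, with 0.0067 to 0.065 over the alternatives). The sum of the neutrophil markers moved in the same order. Between selenite and β-CYP, 1 of 10 tested was higher (Csf3r) and 0 lower (10%, against 23.9% of all genes called). Against control, 5 of 10 were higher in β-CYP and 8 of 10 with selenite. These are 50% and 80%, against 16.3% and 28.9% of all genes called. Cxcr1, a second neutrophil receptor, had 3 reads in control and 9 with selenite and did not pass.

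**Figure D3:**
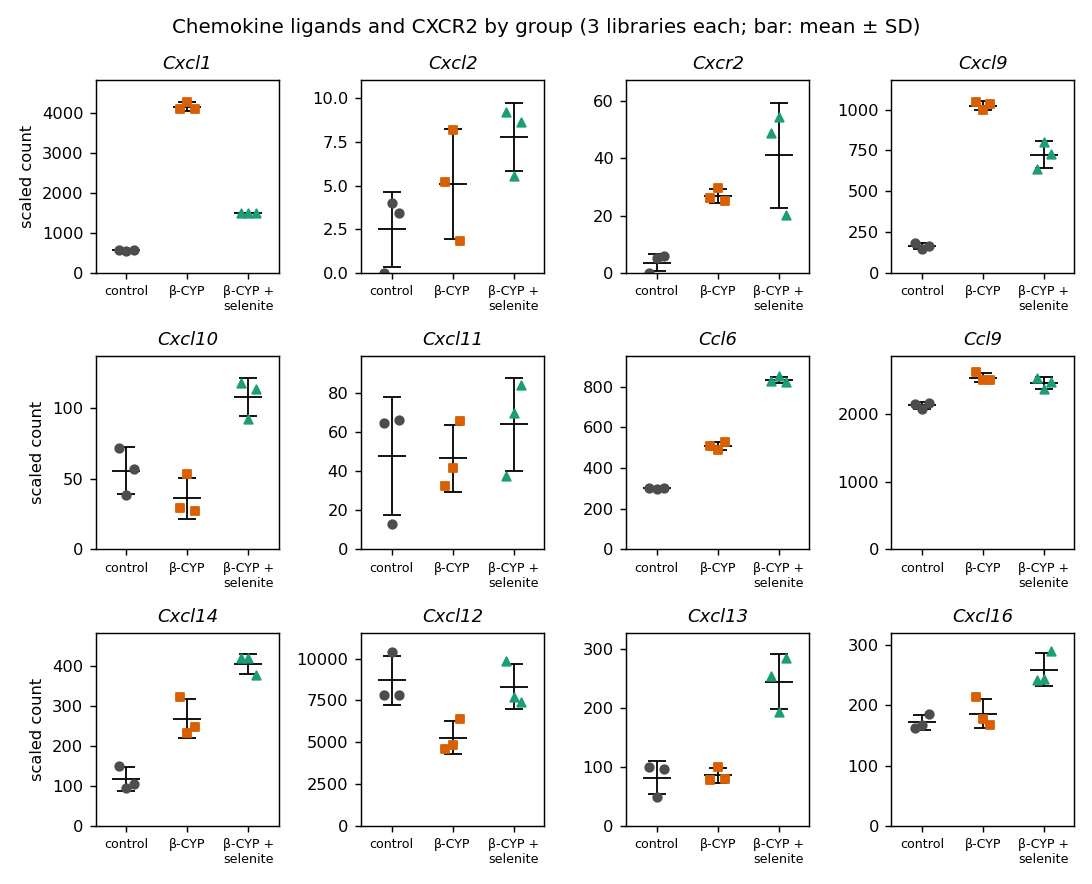
Scaled counts of 11 ligands and the receptor gene Cxcr2, on linear axes from 0, with 1 symbol for each library and a bar at the mean ± SD of the 3 libraries of a group. Cxcl1 is highest in β-CYP (4080 to 4277), Cxcl9 follows the same order, Cxcl10 does not, Ccl6 and Cxcl14 climb over the 3 groups, and Cxcl12 is lowest in β-CYP (4598 to 6399).

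CXCL9, CXCL10 and CXCL11 share the receptor CXCR3 of activated T cells and natural killer cells and are known as interferon-inducible chemokines. Cxcl9 stood at 184, 146 and 165 scaled counts in control, at 1046, 997 and 1032 in β-CYP and at 638, 804 and 730.2 with selenite, with no overlap between groups. It rose 6.21-fold in β-CYP (log2 change 2.63 ± 0.10, adjusted p = 1.4e-07) and remained 4.39-fold above control with selenite (2.13 ± 0.10, adjusted p = 3.0e-07). With selenite it was lower than in β-CYP by 1.42-fold (-0.51 ± 0.10, adjusted p = 0.0062), a call lost with equal totals (-0.38, adjusted p = 0.059, with 0.0012 to 0.059 over the alternatives).

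Cxcl10 stood at 71.8, 38.2 and 57.1 scaled counts in control, at 29.1, 53.1 and 26.8 in β-CYP and at 118, 92.2 and 114 with selenite. Control and β-CYP overlapped (log2 change -0.63 ± 0.31, 95% interval -1.32 to 0.067), and the selenite libraries lay above all others. Its rise between β-CYP and selenite was 2.97-fold (1.60 ± 0.31, adjusted p = 0.0041) and held in all 18 alternatives. Against control the rise was 0.98 ± 0.31 (adjusted p = 0.039, with 0.017 to 0.13 over the alternatives), lost with quantile normalization (0.078), without the trend (0.065) or the filter (0.054), without control replicate 2 (0.13) or 3 (0.084), and without any 1 of the 3 selenite libraries (0.062 to 0.12).

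Cxcl11 ranged over 13.1 to 66.3 scaled counts in control, within 32.2 to 65.6 in β-CYP and 37.7 to 84.3 with selenite, and no comparison passed. The Cxcl9 level per level of Cxcl10, each per kilobase of exon, was 1.91, 2.85 and 2.15 in control, 26.8, 14.0 and 28.7 in β-CYP and 4.04, 6.51 and 4.78 with selenite. The groups did not overlap in this ratio, which was highest in every β-CYP library.

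The windows before the start sites of Cxcl9 and Cxcl10 are shown because the ratio of these ligands of the same receptor is given above. Besides the motif above, 2 others were searched on both strands: GAAA followed after any 2 bases by GAAA, a form of the interferon-stimulated response element, and TTC followed after any 3 bases by GAA, a form of the site bound by STAT factors, which reads the same on both strands.
Cxcl9, chr5:92328080-92328329, minus strand: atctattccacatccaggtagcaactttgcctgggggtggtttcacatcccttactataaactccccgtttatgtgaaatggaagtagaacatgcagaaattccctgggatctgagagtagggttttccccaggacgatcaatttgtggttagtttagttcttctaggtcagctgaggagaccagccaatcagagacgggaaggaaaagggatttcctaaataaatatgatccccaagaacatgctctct
Cxcl10, chr5:92348890-92349139, minus strand: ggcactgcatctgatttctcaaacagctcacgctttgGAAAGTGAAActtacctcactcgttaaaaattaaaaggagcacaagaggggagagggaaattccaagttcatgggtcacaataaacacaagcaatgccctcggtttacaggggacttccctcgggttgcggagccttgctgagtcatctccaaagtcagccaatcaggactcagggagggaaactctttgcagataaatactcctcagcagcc

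The Cxcl10 window holds 1 match to the interferon element, in capitals, beginning at base -213, and the Cxcl9 window holds none of the 3 motifs in these letters. That element is present in 2.98% of all windows and in those of 3 members (Ccl19, Cxcl10 and Cxcl14), and the STAT form in 7.02% of all windows and in those of 2 members (Ccr1l1 and Cxcl14). Motif matches in this family and the course of the messages are given side by side only.

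The receptor Cxcr3 stood at 0 to 10.3 scaled counts in control, within 10.2 to 16.6 in β-CYP and 12.0 to 22.04 with selenite. No comparison of it passed (selenite against control 2.01 ± 0.82 (log2), adjusted p = 0.10). Of the markers of T cells and natural killer cells, which carry it, 3 of 14 and 3 of 8 tested were higher with selenite than in β-CYP. These are 21.4% and 37.5%, against 23.9% of all genes called. The natural killer genes were Prf1, Gzma and Gzmb, and no other tested marker of that list passed in that comparison. Prf1 was at 0 in all β-CYP libraries, and its selenite values (3.68, 6.46 and 7.67) lay within the control range (0 to 12.1). Between selenite and control, Ncr1, Gzma and Gzmb were higher (37.5%, against 28.9% of all genes called).

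Of 6 genes of monocyte recruitment, Ccr2, Cx3cr1 and Ccl7 rose between β-CYP and selenite, while Ccl2, Ccl8 and Cx3cl1 did not pass in that comparison. Ccr2, the receptor that brings inflammatory monocytes out of the blood, stood at 20.2, 23.2 and 16 scaled counts in control, at 34.3, 41.9 and 60.1 in β-CYP and at 91.1, 98.7 and 80.5 with selenite. The 3 groups did not overlap. It rose by 1.14 ± 0.25 (log2) in β-CYP (adjusted p = 0.013), by a further 1.01 ± 0.25 with selenite (adjusted p = 0.017) and by 2.14 ± 0.25 between selenite and control (4.55-fold, adjusted p = 1.5e-04). The last call held in all alternatives. The first was lost when only control and β-CYP were fitted (0.057), and the second without β-CYP replicate 1 or 2 or selenite replicate 1 or 2 (adjusted p 0.053 to 0.064).

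Cx3cr1, the fractalkine receptor of patrolling monocytes and tissue macrophages, stood at 24.3, 19.1 and 19.4 scaled counts in control, 23.9, 35.7 and 23.1 in β-CYP and 71.8, 71.0 and 60.4 with selenite. The selenite libraries lay above the other 6, which overlapped. The rise was 1.29 ± 0.24 (log2) between β-CYP and selenite (adjusted p = 0.0038) and 1.65 ± 0.24 between control and selenite (adjusted p = 6.6e-04), and both held in all alternatives. Its ligand Cx3cl1 ranged over 10.4 to 34.5 scaled counts in the 9 libraries and did not pass.

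The ligands of CCR2 were scarce. Ccl7 had no read in control, 2 reads in β-CYP and 12, 9 and 7 reads with selenite. Its group means were 0, 0.69 and 8.69 scaled counts, so it met the minimum mean of 1 only through the selenite libraries. That favours its calls, and Ccl7 is among the 13 and 17 members higher with selenite. It was at least 2.75-fold higher with selenite than in control, with 3 reads per library in place of 0 (adjusted p = 0.0023), and higher than in β-CYP by a ratio of 12.5 (95% counting interval 3.32 to 114, adjusted p = 0.0078). Ccl2 stood at 7.05 to 16 scaled counts in control, within 5.20 to 12.9 in β-CYP and 13.8 to 24.9 with selenite. The selenite libraries lay above those of β-CYP, but no comparison passed (1.22 ± 0.45 (log2) against β-CYP, adjusted p = 0.083). Ccl8 was above 0 in 1 β-CYP and 2 selenite libraries, with at most 11 reads. Monocyte markers were 3 higher of 6 between selenite and β-CYP (50%, against 23.9% of all genes called). Among the 3 was Itgam, an integrin chain of myeloid cells (2.11 ± 0.46, adjusted p = 0.0080).

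CCL6 and CCL9 are myeloid chemokines of rodents that act through CCR1. Ccl6 stood at 300.5, 299 and 302 scaled counts in control, at 509, 488 and 527 in β-CYP and at 826, 852 and 824 with selenite. Each group lay above the one before it. The steps were 0.75 ± 0.058 (log2) in β-CYP (adjusted p = 1.4e-05) and 0.72 ± 0.058 with selenite (adjusted p = 1.3e-05), and Ccl6 was 2.78-fold above control with selenite (1.47 ± 0.058, adjusted p = 5.7e-08), all held in every alternative.

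Ccl9, which lies beside Ccl6, was among the most abundant members, at 2147, 2075 and 2161 scaled counts in control, 2617, 2503 and 2497 in β-CYP and 2530.0, 2365 and 2476 with selenite. Both treated groups lay above control and overlapped each other. The rise was small, 1.19-fold in β-CYP (log2 change 0.25 ± 0.040, adjusted p = 0.0017) and 1.15-fold with selenite (0.21 ± 0.040, adjusted p = 0.0032). The difference between the treated groups did not pass (-0.047 ± 0.040).

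The receptor Ccr1 stood at 0 to 10.1 scaled counts in control, within 13.5 to 26.8 in β-CYP and 10.1 to 26.7 with selenite. The treated groups lay above control, but no comparison passed (2.38 ± 0.80 (log2) in β-CYP and 2.13 ± 0.80 with selenite, adjusted p = 0.078 for each). Ccr1l1, a related receptor gene, held 0 to 12.6 scaled counts and did not pass.

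Ccl5, an attractant of T cells and monocytes, stood at 5.06, 11.1 and 29.7 scaled counts in control, at 7.28, 8.17 and 13.9 in β-CYP and at 26.7, 42.4 and 53.7 with selenite. It was 4.19-fold higher with selenite than in β-CYP (1.95 ± 0.57 (log2), adjusted p = 0.033), and control overlapped both. That call was lost without β-CYP replicate 1 or 2 or selenite replicate 2 or 3 (adjusted p 0.091 to 0.12). It was also lost with quantile normalization (0.052) or without the trend (0.062). The rise against control missed the threshold (adjusted p = 0.0598) and passed in 6 of 18 alternatives. Among these were voom on the recovered reads (0.041) and the fit without control replicate 3 (2.24, adjusted p = 0.011). Ccl3 and Ccl4, inflammatory chemokines of macrophages, held 0 to 14.7 and 0 to 12.0 scaled counts and did not pass.

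Ccr3, a receptor of eosinophils, stood at 154, 234 and 138 scaled counts in control, 142, 166 and 148 in β-CYP and 252, 226 and 213 with selenite. Ccl24, an eosinophil attractant that binds CCR3, stood at 142, 198 and 123 in control, 111, 138 and 153 in β-CYP and 226, 233 and 194 with selenite. In both genes control replicate 2 was the highest control, and the selenite libraries lay above those of β-CYP. The rise between β-CYP and selenite was 0.59 ± 0.18 (log2) for Ccr3 (adjusted p = 0.043, with 0.0097 to 0.14 over the alternatives) and 0.70 ± 0.19 for Ccl24 (adjusted p = 0.024, with 0.0067 to 0.085). The Ccr3 call was lost without any 1 of the 6 libraries (0.063 to 0.14) and under 4 other settings (0.056 to 0.079), and the Ccl24 call without β-CYP replicate 1 or 2 or selenite replicate 1 or 2 (0.055 to 0.085) or without the trend (0.0504). Without control replicate 2, both were also higher with selenite than in control (0.65, adjusted p = 0.0068, for Ccr3 and 0.71, adjusted p = 0.016, for Ccl24). Ccl11, another CCR3 ligand, held at most 9 reads in a library.

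CXCL12 is the homeostatic ligand of CXCR4. Cxcl12 stood at 7838, 10398 and 7854 scaled counts in control, at 4598, 4820.3 and 6399 in β-CYP and at 9882, 7682 and 7413 with selenite. The β-CYP libraries lay below the other 6. It fell 1.65-fold in β-CYP (log2 change -0.72 ± 0.16, adjusted p = 0.012), a call held in all alternatives, and was 1.58-fold higher with selenite than in β-CYP (0.66 ± 0.16, adjusted p = 0.013). The latter was lost without β-CYP replicate 1 (adjusted p = 0.054) or 2 (0.052) or selenite replicate 1 (0.055). Selenite and control did not differ beyond their spread (-0.062 ± 0.16, 95% interval -0.42 to 0.29).

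Per kilobase of exon, all annotated isoforms of a gene merged, Cxcl12 was the most abundant member in control, at 1064 scaled counts against 699 for Ccl9 and 298 for Cxcl1. In β-CYP the order was Cxcl1 at 2214, Ccl9 at 834 and Cxcl12 at 645. With selenite it was Cxcl12 at 1018, Ccl9 at 807 and Cxcl1 at 799, where Ccl9 ranged over 777 to 831 and Cxcl1 over 796 to 801 and the neighbours overlapped. The ratio of Cxcl1 to Cxcl12 per kilobase was 0.22 to 0.32 in control, within 2.78 to 3.88 in β-CYP and 0.66 to 0.88 with selenite, so the groups did not overlap.

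Cxcr4 stood at 21.2, 8.05 and 13.7 scaled counts in control, at 17.7, 24.5 and 19.4 in β-CYP and at 40.5, 42.4 and 27.8 with selenite. It was 2.57-fold higher with selenite than in control (1.38 ± 0.37 (log2), adjusted p = 0.019), a call lost without control replicate 2 (adjusted p = 0.053) or selenite replicate 1 (0.064) or 2 (0.068). The other comparisons did not pass.

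CXCL14 is a constitutive chemokine of epithelia. Cxcl14 stood at 151, 95.6 and 105 scaled counts in control, at 323, 233 and 249 in β-CYP and at 422, 419.7 and 378 with selenite, with no overlap between groups. It rose by 1.20 ± 0.18 (log2) in β-CYP (2.29-fold, adjusted p = 0.0013) and by 1.81 ± 0.18 with selenite (3.47-fold, adjusted p = 4.6e-05), both held in all alternatives. The step between the treated groups (0.61 ± 0.18, adjusted p = 0.035) was lost without the trend (0.073) and without any 1 of the 6 libraries except β-CYP replicate 1 (adjusted p 0.069 to 0.12).

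CXCL16, made by sinusoidal endothelium and macrophages, retains CXCR6-bearing lymphocytes in the sinusoids. Cxcl16 stood at 162, 167 and 186 scaled counts in control, at 213, 178 and 167 in β-CYP and at 242, 244 and 290.4 with selenite. The selenite libraries lay above the other 6. The rise was 1.51-fold against control (0.59 ± 0.13 (log2), adjusted p = 0.0062) and held in all alternatives. Against β-CYP it was 1.39-fold (0.48 ± 0.13, adjusted p = 0.021) and was lost without β-CYP replicate 2 (0.066) or 3 (0.074), without selenite replicate 3 (0.076) or when only these groups were fitted (0.051). Its receptor Cxcr6 ranged over 8 to 21.2 scaled counts in control, within 7.28 to 20.4 in β-CYP and 18.2 to 35.9 with selenite, and did not pass.

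Among the ligands that organise lymphoid tissue, Cxcl13, which draws B cells through CXCR5, stood at 99.2, 49.3 and 96.0 scaled counts in control, at 77.0, 100.1 and 79.5 in β-CYP and at 254, 193 and 285 with selenite. The selenite libraries lay above the other 6. Cxcl13 was 2.85-fold higher with selenite than in β-CYP (1.49 ± 0.27 (log2), adjusted p = 0.0030) and 2.99-fold higher than in control (1.62 ± 0.27, adjusted p = 0.0015), both held in all alternatives. Its receptor Cxcr5 held 0 to 8.30 scaled counts and did not pass. Of the B cell and follicle markers, 1 of 9 tested was higher between selenite and β-CYP (11.1%, against 23.9% of all genes called). It was Ms4a1, which was at 0 in all β-CYP libraries.

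Ccl19, a ligand of CCR7 that guides dendritic cells and T cells, stood at 0, 0 and 11.4 scaled counts in control, at 46.8, 30.6 and 24.03 in β-CYP and at 24.9, 30.4 and 32.6 with selenite. Both treated groups lay above control and overlapped each other. The rise was 3.86 ± 0.86 (log2) in β-CYP (adjusted p = 0.013) and 3.70 ± 0.86 with selenite (adjusted p = 0.0096). The former was lost without control replicate 1 (adjusted p = 0.051) or 2 (0.054), without β-CYP replicate 1 (0.052) or with only control and β-CYP fitted (0.078), and the latter held in all alternatives. Ccl19 has near-identical pseudogene copies, and the handling of reads that match several of them is unknown here, so the value of each copy is uncertain. Ccl19-ps3 had no read in control, 9, 0 and 4 reads in β-CYP and 8, 10 and 4 with selenite, at least 2.15-fold higher with selenite than in control (adjusted p = 0.023, lost without any 1 of the 6 libraries except selenite replicate 3, 0.056 to 0.076). Ccl19-ps1 held 0.92 to 8.62 scaled counts and did not pass.

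Ccl21a, the other CCR7 ligand, stood at 38.2 to 51.4 scaled counts in control, within 35.7 to 60.3 in β-CYP and 54.3 to 81.2 with selenite, and did not pass. Its near-identical copy Ccl21b held at most 5 reads, and reads of the pair may have been split. The receptor Ccr7 held 0 to 10.1 scaled counts and did not pass. Ccl25, a gut and thymus chemokine, did not differ between groups beyond its spread (111, 109.7 and 81.1 scaled counts in control, 115, 64.3 and 96.1 in β-CYP and 113, 107 and 103 with selenite, log2 change in β-CYP -0.16, 95% interval -0.65 to 0.34). Its receptor Ccr9 stood at 5.06, 2.01 and 6.86 scaled counts in control, 10.4, 11.2 and 10.2 in β-CYP and 12.9, 12.9 and 12.5 with selenite, without overlap. It passed between selenite and control (1.39 ± 0.41 (log2), adjusted p = 0.030), and was lost with quantile normalization (0.051), only these groups fitted (0.063), or without control replicate 2 (0.066) or any selenite library (0.067 to 0.073).

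Ccl27a, a skin chemokine whose receptor is CCR10, was the member that fell with selenite against control. It stood at 48.6, 70.5 and 84.6 scaled counts in control, at 56.2, 56.2 and 66.6 in β-CYP and at 30.4, 36.9 and 47.0 with selenite. The fall was 1.78-fold (-0.80 ± 0.25 (log2), adjusted p = 0.038) and was lost with equal totals (0.071), without the filter (0.052), with only these groups fitted (0.082), and without control replicate 2 or 3 or selenite replicate 1 or 2 (0.091 to 0.13). Ccl28, also a ligand of CCR10, had no read in control and up to 9 in a treated library. Ccr10 held at most 7 reads, and neither passed.

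Ccl22, with which dendritic cells and macrophages attract CCR4-bearing T cells, stood at 5.06, 0 and 3.43 scaled counts in control, at 0, 4.08 and 2.77 in β-CYP and at 20.3, 9.22 and 20.1 with selenite. The selenite libraries lay above the other 6. The rise against β-CYP (2.63 ± 0.83 (log2), adjusted p = 0.046) was lost in 11 of 17 alternatives (adjusted p 0.012 to 0.14 over all), among them those without β-CYP replicate 1 (0.14) or 3 (0.074) or selenite replicate 1 (0.13), 2 (0.065) or 3 (0.13). Against control it missed the threshold (2.47 ± 0.83, adjusted p = 0.051) and passed in 4 of 17 alternatives. Among these were voom on the recovered reads (0.049) and the fit without control replicate 1 (0.044). Xcl1, made by natural killer and T cells, had 6, 0 and 5 reads with selenite and 2 in the other 6 libraries. Its receptor Xcr1, a marker of cross-presenting dendritic cells, stayed at 16.1 to 22.9 scaled counts in control, within 17.4 to 26.0 in β-CYP and 15.7 to 25.9 with selenite (95% interval of the log2 change between control and selenite -0.52 to 0.84).

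**Figure D4:**
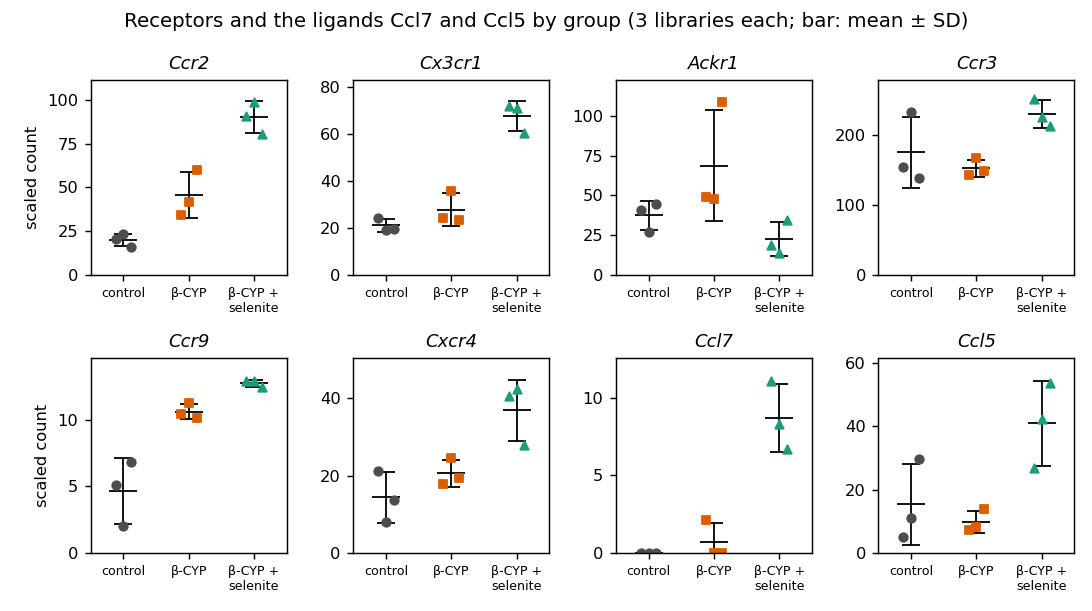
Scaled counts of 6 receptor genes, the atypical receptor gene Ackr1 among them, and of the ligand genes Ccl7 and Ccl5, on linear axes from 0, with 1 symbol for each library and a bar at the mean ± SD of the 3 libraries of a group. Ccr2 climbs over the 3 groups, and Cx3cr1 and Ccl7 stand apart with selenite (60.4 to 71.8 and 6.71 to 11.05 scaled counts).

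Of the 5 atypical receptors, Ackr1 passed in 1 comparison. Ackr1, which carries chemokines across venular endothelium, stood at 40.5, 27.2 and 44.6 scaled counts in control, at 48.9, 48.0 and 109 in β-CYP and at 18.4, 13.8 and 34.5 with selenite. Every selenite library lay below every β-CYP library, and β-CYP replicate 3 was the highest of all. The fall with selenite was 3.09-fold (-1.57 ± 0.42 (log2), adjusted p = 0.022) and was lost without β-CYP replicate 3 (-1.19, adjusted p = 0.077), without selenite replicate 1 (0.073) or 2 (0.084), or with only these groups fitted (0.076).

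Ackr3, a scavenger of CXCL12, stood at 11.1 to 21.2 scaled counts in control, within 26.8 to 34.3 in β-CYP and 19.3 to 29.7 with selenite. The β-CYP libraries lay above control, but the difference missed the threshold (1.01 ± 0.32 (log2), adjusted p = 0.061). Ackr2, which degrades inflammatory CC chemokines, varied widely within groups, at 56.0 to 125 in control, within 26.0 to 98.0 in β-CYP and 7.37 to 72.9 with selenite. Ackr4, a scavenger of CCL19, CCL21 and CCL25, ranged over 31.4 to 76.5 scaled counts and Ccrl2, which binds chemerin, over 17.1 to 58.2. These 4 did not pass in any comparison.

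Genes around the family were counted from lists of its inducers, signalling partners and adhesion molecules, and are given beside the 16.3%, 23.9% and 28.9% of all genes called in β-CYP against control, selenite against β-CYP and selenite against control. A list of regulators of the NF-κB and interferon pathways was 13 higher and 2 lower of 23 in β-CYP against control (65.2%). It holds transcription factors and also inhibitors of NF-κB, of which Nfkbib and Tnfaip3 were higher and Nfkbia lower. Bcl3, an NF-κB cofactor, rose by 1.51 ± 0.089 (log2), Nfkb2 by 0.96 ± 0.13 and Stat3 by 0.86 ± 0.044. Between selenite and β-CYP the list was 3 higher and 11 lower (60.9%), with Bcl3 lower (-1.03 ± 0.089). Between selenite and control it was 10 higher and 3 lower (56.5%).

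Cytokines that induce chemokines, with their receptors, were 6 higher and 2 lower of 22 in β-CYP (36.4%, against 16.3% of all genes), 3 higher and 7 lower between selenite and β-CYP (45.5%, against 23.9%), and 12 higher and 3 lower between selenite and control (68.2%, against 28.9%). The interleukin-1 receptor Il1r1 rose from 1554 to 7014 scaled counts in β-CYP (2.17 ± 0.034 (log2), adjusted p = 1.8e-10) and the tumour necrosis factor receptor Tnfrsf1a from 2075 to 4491 (1.11 ± 0.042, adjusted p = 8.6e-08). The 2 genes lower in β-CYP were the interleukin-1 receptor accessory protein gene Il1rap and a further tumour necrosis factor receptor, Tnfrsf1b. The cytokine Tnf itself was at 1.68 scaled counts in control, 1.62 in β-CYP and 16.9 with selenite (2.94 ± 0.80 (log2) against β-CYP, adjusted p = 0.025).

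Signalling components below the receptors were 5 higher and 2 lower of 34 in β-CYP (20.6%, against 16.3% of all genes), 3 higher between selenite and β-CYP (8.82%, against 23.9%), and 11 higher and 1 lower between selenite and control (35.3%, against 28.9%). Fgr, a Src family kinase of myeloid cells, rose by 1.29 ± 0.21 (log2) in β-CYP. Adhesion molecules of leukocyte entry were 5 higher in β-CYP (26.3%), 9 higher and 3 lower between selenite and β-CYP (63.2%), and 11 higher and 1 lower between selenite and control (63.2%), of 19. Icam1, a ligand of leukocyte integrins, stood at 477, 897 and 1087 scaled counts in control, β-CYP and selenite. Genes that cleave or retain chemokines, with the platelet chemokines, were 4 higher and 4 lower of 20, 3 and 4, and 4 and 6 in the 3 comparisons (40%, 35% and 50%). Ppbp, a platelet ligand of CXCR2 outside the symbols chosen, was at 10.1, 25.1 and 25.5 scaled counts, higher in β-CYP (1.17 ± 0.35 (log2), adjusted p = 0.047), while Pf4, another platelet chemokine, did not pass.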

How the data were processed

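RNA from liver was sequenced in 9 libraries, 3 per group. The values the authors deposited are log2 values per gene, for 25781 genes. The submitters' processing notes name HISAT and Cufflinks with build mm9, without roles or versions. Which annotation and counter were used is not stated. The labels name both an Illumina and a BGISEQ platform. When the log2 was undone, 100% of values in each library came within 0.02 of a whole read number, and the library factors equalled median-of-ratios factors, which assume that most genes do not change.

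limma 3.58.1 (R 4.3.3) was fitted to log2(scaled count + 1), with 3 group means, all 9 libraries and an intensity trend. A gene was tested if its mean scaled count reached 1, which left 20145 genes. P-values are two-sided and Benjamini-Hochberg adjusted, with a threshold of 0.05. For genes with few reads, changes on this scale can lie below or above the ratio of means. Ccl7 had 2.71 (log2) beside a ratio of 12.5 between selenite and β-CYP. Ccl19 had 3.86 beside a ratio of only 8.88 between β-CYP and control, and 2.34 to 5.07 over the alternatives. The members and the lists were chosen with earlier results of these data known. Values in each library are given for members that passed in a comparison or had a mean of at least 100; a few named items are not reported here, though the counts include them. The fit was tested on simulated counts. No libraries agreed within counting noise, so none were merged. Exon lengths are from the GENCODE annotation of GRCm38. Bounds and counting intervals (95%) cover counting error only, and a bound takes 3 reads per library for 0.

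Alternatives were the pseudocount, the filter, the scaling, the trend, voom on the recovered reads, the groups fitted, a replicate block and leaving out each library, 18 per comparison (17 for members with a mean below 10).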

Additional observations from a re-analysis of the deposited data

How the results depend on the processing

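No call reversed in any alternative. Of the members called, 6 of 9, 6 of 16 and 12 of 18 passed in all alternatives run (17 or 18 each) in the 3 comparisons (β-CYP with control, selenite with β-CYP, selenite with control). In the same order, 1, 1 and 4 members not called passed in at least 1 alternative. These were counted among the 25 members that passed in a comparison or had a mean of at least 100. When only the 2 groups compared were fitted, members higher in β-CYP were 5 in place of 8. Between selenite and β-CYP, members higher were 8 in place of 13 without the intensity trend, and 6 to 9 when 1 library was left out. Leaving out 1 library gave 7 to 9 members higher in β-CYP and 12 to 17 higher between selenite and control. The 1 member lower between selenite and control became 0 without the filter, 0 with equal totals, 0 with only these groups fitted, 2 with quantile normalization, and 0 to 2 with 1 library left out. The cause was not tested. Genes at under 10 scaled counts rest on few reads, where a change of 1 read moves the value by 0.92 to 1.14 scaled counts.

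Replicate numbers did not pair the libraries: deviations from the group means correlated at -0.011 to 0.032 between libraries of the same number and at -0.040 to 0.023 between others. With a replicate block, members higher and lower were 8 and 1, 12 and 3, and 16 and 2 in the 3 comparisons. The block ended the calls of Cxcl10 (adjusted p = 0.073) and Ccr9 (0.053) between selenite and control and of Ccl22 (0.071) between selenite and β-CYP, and Ccl5 passed between selenite and control (0.018).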
